A study of Mus musculus with 8 samples.

Results

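The 10 genes described here respond to glucocorticoids or to cell stress in many tissues: Cdkn1a, Gadd45a, Gadd45b, Gadd45g, Btg2, Klf9, Sgk1, Tsc22d3, Fkbp5 and Mt2. They were found by gene symbol in a table of 45706 genes, in which all 10 had 1 row each, and all 10 were among the 14629 genes that passed a filter on low counts. RNA of whole liver was sequenced from 8 female C57BL/6J mice at an age of 4 months after an overnight fast, each mouse giving 1 library. The 4 S155A mice carried a knock-in of the whole body, made with CRISPR-Cas9, in which a serine of perilipin 5 (PLIN5), a coat protein of lipid droplets, is replaced by alanine and can no longer be phosphorylated, and the 4 WT mice had the unaltered protein. The question put to these mice was whether that phosphorylation shapes the liver's gene expression in fasting. Each mouse also has an animal number in its label. The numbers fall into a low series under 200 (WT 1 and WT 4, with numbers 123 and 89, and S155A 1 and S155A 4, with 118 and 90) and a high series over 800 (WT 2 and WT 3, with 856 and 869, and S155A 2 and S155A 3, with 830 and 831). The labels do not say what the number series stand for, whether litter, cohort or day of harvest, nor whether mice with neighbouring numbers were littermates, so anything that went with the numbers cannot be told apart from the numbers. Each genotype had 2 mice in each series.

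Glucocorticoids, the adrenal hormones released in fasting and stress, bind the glucocorticoid receptor in hepatocytes, and the receptor then moves to the nucleus and raises transcription of its target genes. Klf9, Sgk1, Tsc22d3 and Fkbp5 are classical targets of this receptor, and Mt2 is induced both by glucocorticoids and by zinc. Cdkn1a, the 3 Gadd45 genes and Btg2 restrain growth or aid DNA repair and are induced by DNA damage, by p53 or by other stress signals, and several of them also respond to fasting hormones in liver.

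The stretches just upstream of the starts of 4 of the genes are given as examples. Those of Mt2 and Sgk1 hold letters known from these pathways, and those of Gadd45g and Fkbp5 hold an E-box. The sequences are those of RefSeq on GRCm38.p6, 250 bases up to the start, written 5′ to 3′ along the strand of the gene. Capitals in Mt2 (chr8:94172368-94172617, plus strand) mark the metal response elements TGCACNC and TGCGCNC on either strand. Capitals in Sgk1 (chr10:21993640-21993889, plus strand) mark the full glucocorticoid response element, the half-site AGAACA and its mirror image TGTTCT with 3 bases of any kind between them. Capitals in Gadd45g (chr13:51846425-51846674, plus strand) and Fkbp5 (chr17:28486150-28486399, minus strand) mark the E-box CACGTG, the letters bound by clock factors and the MYC family. The starts used for Sgk1 and Fkbp5 lie inside the longer bounds that GENCODE gives these genes.
Mt2: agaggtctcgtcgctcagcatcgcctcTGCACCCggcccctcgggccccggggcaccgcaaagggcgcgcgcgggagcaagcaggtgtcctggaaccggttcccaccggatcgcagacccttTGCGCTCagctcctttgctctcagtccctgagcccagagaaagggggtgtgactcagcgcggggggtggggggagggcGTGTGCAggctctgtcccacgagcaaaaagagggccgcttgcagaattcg
Sgk1: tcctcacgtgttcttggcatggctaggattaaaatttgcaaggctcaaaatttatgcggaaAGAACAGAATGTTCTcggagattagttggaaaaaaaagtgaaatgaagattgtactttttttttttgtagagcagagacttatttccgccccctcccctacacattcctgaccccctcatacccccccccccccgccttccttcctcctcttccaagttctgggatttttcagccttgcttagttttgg
Gadd45g: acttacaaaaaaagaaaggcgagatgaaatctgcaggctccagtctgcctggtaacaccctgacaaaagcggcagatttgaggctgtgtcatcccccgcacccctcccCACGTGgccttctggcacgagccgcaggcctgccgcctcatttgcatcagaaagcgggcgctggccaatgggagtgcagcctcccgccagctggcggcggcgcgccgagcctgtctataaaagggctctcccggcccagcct
Fkbp5: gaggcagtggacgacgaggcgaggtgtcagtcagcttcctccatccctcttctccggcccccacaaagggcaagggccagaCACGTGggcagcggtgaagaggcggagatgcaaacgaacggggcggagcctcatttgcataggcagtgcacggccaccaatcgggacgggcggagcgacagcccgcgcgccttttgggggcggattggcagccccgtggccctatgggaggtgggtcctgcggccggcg

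All 10 genes had at least 1 such window in RefSeq, 18 windows in all for the genes with several starts. The search covered both strands. The full glucocorticoid response element stood in 1 of the 18 windows and in 3 of all 32851 windows of the genome (0.00913%). That window was the Sgk1 window printed above, where the element lay 189 bases before the start. Sgk1 has several starts, and the windows of its other starts did not hold the full element. Its half-site AGAACA, which the full element contains, stood in windows of Sgk1 and Tsc22d3 and in 16.1% of all windows. The Mt2 window held 2 matches of TGCACNC, 223 and 50 bases before the start, and 1 of TGCGCNC, 128 bases before it, and these forms occur in 10.4% and 12.5% of all windows, with 1 match also for Gadd45g and for Btg2. An E-box was found for Fkbp5, Gadd45b, Gadd45g and Sgk1, and in 6.02% of all windows. The cAMP response element TGACGTCA was found for Btg2 and in 1.55% of all windows. The letters TATAAA were found for Gadd45b, Gadd45g and Sgk1 and in 12.4% of all windows. These matches describe letters in short windows, and binding was not measured.

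The libraries held between 39709785 and 54540864 estimated counts, and no 2 libraries were copies of each other. Levels are given as CPM, the count of a gene relative to the library size after TMM normalization. Plin5 itself was present in all 8 livers, at 183 to 254 CPM in WT and 192 to 457 CPM in S155A. Its log2 fold change between genotypes was 0.67 (SE 0.24, edgeR quasi-likelihood unadjusted p = 0.0193, Benjamini-Hochberg adjusted p = 0.993). Since the knock-in changes 1 amino acid, the level of Plin5 does not check the genotype. The labels name hepatocytes as the cell type. The hepatocyte markers summed to between 87480 and 125767 CPM, and those of Kupffer cells, endothelial cells, stellate cells and red blood cells were also present, so the values are read as whole liver. In the library of S155A 3 the lymphocyte markers summed to 891 CPM, against 10.3 to 26.6 CPM in the 7 others. Values without this mouse are given below for many of the genes and lists, but not for all. In whole tissue, fewer cells of a type and less RNA per cell cannot be told apart.

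Set against the exon length of each gene (all annotated exons of GENCODE M21 joined), Mt2 was the most abundant of the 10, with a mean of 428 CPM per kilobase and a range of 129 to 803 over the 8 mice. Gadd45g followed with 32.9 CPM per kilobase, Tsc22d3 with 24.4, Gadd45b with 11.9, Klf9 with 10.3 and Cdkn1a with 9.83. The lower end held Fkbp5 with 6.84 CPM per kilobase, Btg2 with 6.17, Sgk1 with 3.76 and Gadd45a with 1.73. The step from Mt2 to Gadd45g was the one at which the ranges over the 8 mice did not overlap, and all later neighbours in this order overlapped. The spread over the mice also differed between the genes. The coefficient of variation of the CPM was 20.8% for Sgk1 and 21.1% for Klf9, lay at 29.8% for Gadd45b and 33.7% for Tsc22d3, and reached 71.0% for Gadd45g and Btg2.

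**Figure D1:**
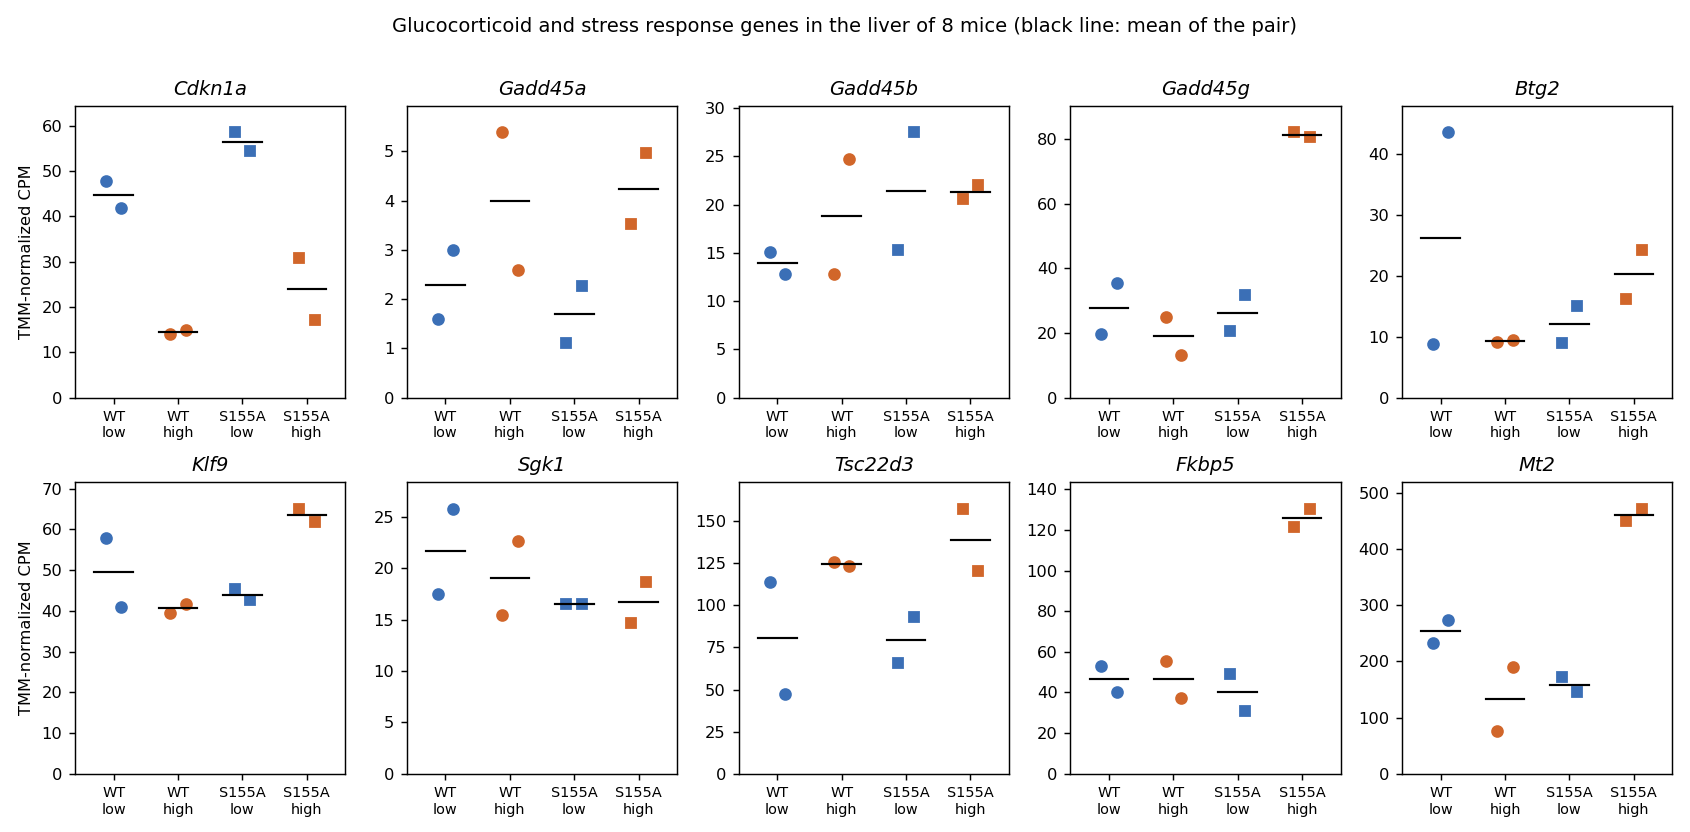
The level of each of the 10 genes in each mouse (y axis, TMM-normalized CPM, from 0) by genotype and animal number series (x axis), with circles for WT, squares for S155A, blue for the low and orange for the high series, and a black line at the mean of each pair. The 2 high-number S155A mice stand above the 6 other mice for Gadd45g, Klf9, Fkbp5 and Mt2, and Cdkn1a is lower in the 4 high-number mice than in the 4 low-number mice.

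Between S155A and WT mice, none of the 10 genes passed the test (edgeR quasi-likelihood, Benjamini-Hochberg adjusted p between 0.993 and 0.998), and none of all 14629 genes did (0%). DESeq2 called none of the 10 genes and 6 of all genes (0.041%). At an unadjusted p under 0.05 there was 1 of the 10 genes, Gadd45g, higher in S155A, where 1.42% of all genes were. Without S155A 3 the unadjusted edgeR p of Gadd45g was 0.0683, with a log2 fold change of 0.93. With the number series as a term it was 0.0554, and Cdkn1a was then the 1 of the 10 genes under 0.05, at 0.0139 and a log2 fold change of 0.53 (edgeR adjusted p = 0.945), where 4.24% of all genes were under 0.05 in either direction. The 10 log2 fold changes had a median of 0.32, with 7 above 0, where the median of all genes was -0.01 and 48.8% lay above 0. The 10 genes and the lists below were chosen with earlier results of these data known. Their counts and medians beside those of all genes are thus a description and not a test. Over both series together the values of the genotypes overlapped for each of the 10 genes, and the exact two-sided permutation p lay between 0.171 for Gadd45g and Klf9 and 0.914 for Btg2 (the smallest that 4 against 4 mice allow is 0.0286).

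Cdkn1a (chr17:29090976-29100727, GRCm38, plus strand) encodes p21, the inhibitor of cyclin-dependent kinases that halts the cell cycle. Its level was 47.8 CPM in WT 1, 41.9 in WT 4, 58.5 in S155A 1 and 54.4 in S155A 4, the low-number mice. It was 13.95 CPM in WT 2, 14.97 in WT 3, 30.7 in S155A 2 and 17.2 in S155A 3, the high-number mice. The lowest of the low-number mice thus stood above the highest of the high-number mice, and the ranges of the series did not overlap in either genotype. Between the series the mean was 50.7 ± 7.33 CPM (SD, n = 4) in low and 19.2 ± 7.80 CPM (SD, n = 4) in high numbers, 2.64-fold lower in the high series. The log2 fold change was -1.43 (SE 0.18), the second smallest p of all 14629 genes, with an edgeR quasi-likelihood adjusted p of 0.0618. Within WT the log2 fold change was -1.63 (SE 0.24, edgeR adjusted p = 0.352), and within S155A it was -1.23 (SE 0.24, edgeR adjusted p = 0.0698), so both genotypes had the same direction. The exact permutation p was 0.0286, the smallest possible. DESeq2 gave the same log2 fold change with an adjusted p of 6.03e-10 and called 2.79% of all genes, and the edgeR adjusted p passed 0.05 when WT 3 was left out (0.0308, with 0.813% of all genes called) or S155A 2 was (0.00393, with 0.00684% of all genes called). With each of the 6 other mice left out in turn the edgeR adjusted p lay between 0.0565 (WT 1) and 0.219 (WT 2). Without S155A 3, the library rich in lymphocyte markers, it was 0.142 and the log2 fold change was -1.33. Within each series Cdkn1a was higher in both S155A mice than in both WT mice, as it was for none of the 9 other genes and for 2.39% of all genes. The log2 fold change of S155A against WT was 0.33 (SE 0.23, edgeR adjusted p = 0.918) in the low and 0.73 (SE 0.24, edgeR adjusted p = 0.325) in the high series.

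Of the 10 genes, Cdkn1a and Tsc22d3 were those whose values did not overlap between the series, where 6.85% of all genes did so. The edgeR test between the series called 0 of the 10 genes and 0 of all genes (0%). At an unadjusted p under 0.05 there were 3 of the 10 genes higher in the high series, Gadd45a, Tsc22d3 and Fkbp5, and 1 lower, Cdkn1a, where 6.64% of all genes were higher and 6.19% lower. Without S155A 3 Fkbp5 was no longer among them (unadjusted p = 0.0796), and Cdkn1a, Gadd45a and Tsc22d3 were. The median log2 fold change of the 10 genes was 0.26, and that of all genes was -0.004. DESeq2 called 1 of the 10 genes, Cdkn1a. Without a filter on low counts edgeR called 4 of the 10 genes and 2.29% of all genes.

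Tsc22d3 (chrX:140539528-140600659, GRCm38, minus strand) encodes GILZ, a leucine zipper protein through which glucocorticoids dampen inflammation. Low-number mice had 114 CPM in WT 1, 47.1 in WT 4, 65.6 in S155A 1 and 93.0 in S155A 4. High-number mice had 126 CPM in WT 2, 123 in WT 3, 157 in S155A 2 and 120 in S155A 3. All 4 high-number mice were thus above all 4 low-number mice, by a narrow margin between WT 1 and S155A 3. The log2 fold change between the series was 0.72 (SE 0.25, edgeR adjusted p = 0.282, exact permutation p = 0.0286), with 0.63 (SE 0.36) within WT and 0.81 (SE 0.36) within S155A. Leaving out 1 mouse at a time gave 0.13 (without WT 4) to 1.39 (without WT 1) within WT. Within S155A it gave 0.58 (without S155A 1) to 1.08 (without S155A 4). Between genotypes the means were 103 ± 37.3 CPM (SD, n = 4) in WT and 109 ± 39.2 CPM (SD, n = 4) in S155A.

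Gadd45a (chr6:67035096-67037457, GRCm38, minus strand), a p53-inducible gene of DNA repair and growth arrest, was the least abundant of the 10. In the low series it was 1.58 CPM in WT 1, 3.0 in WT 4, 1.11 in S155A 1 and 2.27 in S155A 4. In the high series it was 5.38 CPM in WT 2, 2.59 in WT 3, 3.52 in S155A 2 and 4.96 in S155A 3. The series overlapped through WT 4 and WT 3. The log2 fold change between the series was 1.06 (SE 0.35, edgeR adjusted p = 0.277, exact permutation p = 0.0571). The sign was opposite to that of Cdkn1a, which p53 is also known to induce.

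**Figure D2:**
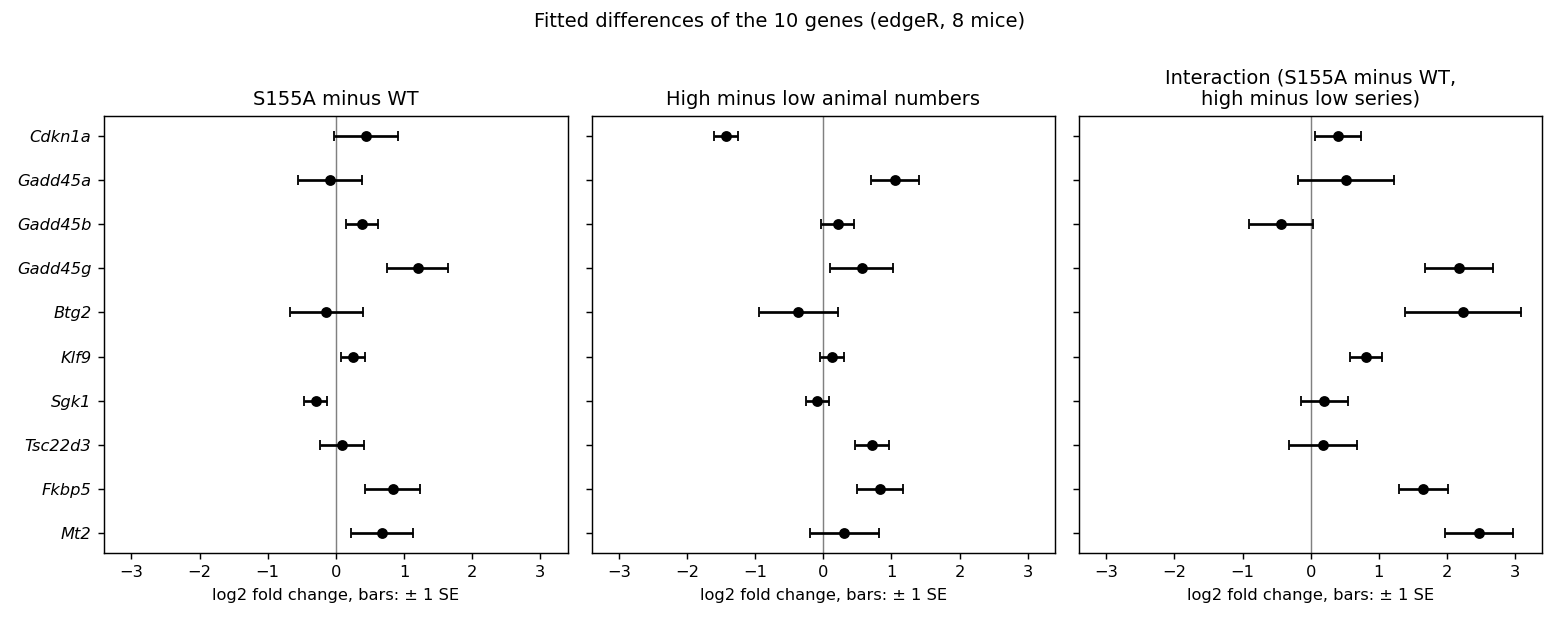
The log2 fold changes fitted by edgeR for the 10 genes (points, bars ± 1 SE, 8 mice) between S155A and WT, between high and low animal numbers, and for the interaction of both. In the middle panel Cdkn1a lies at -1.43 with a short bar, and in the right panel Gadd45g, Btg2, Fkbp5 and Mt2 lie between 1.65 and 2.47.

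A set of 4 of the 10 genes, Gadd45g, Klf9, Fkbp5 and Mt2, was higher in both high-number S155A mice than in all 6 other mice, where 9.11% of all genes had this pattern. These 2 mice carry neighbouring numbers, 830 and 831, and their libraries were the most alike of all pairs. The chi-square between 2 libraries, averaged over genes, was 40.2 for them and 55.2 to 172 for the other pairs. Their TMM factors were the 2 lowest, 0.925 and 0.955. The labels do not say whether they were littermates. Whether the genotypes differed unequally in the series was tested as the interaction of genotype and series. None of the 10 genes passed (edgeR adjusted p between 0.219 and 0.931), nor did any of all genes (0%). At an unadjusted p under 0.05 there were 5 of the 10, Gadd45g, Btg2, Klf9, Fkbp5 and Mt2, all with a positive interaction, where 6.02% of all genes had one. Without S155A 3 there were again 5, with Cdkn1a in place of Btg2. The median interaction of the 10 genes was 0.67, with 9 above 0, and that of all genes was -0.01, with 49.1% above 0. Since the 10 were chosen with earlier results of these data known, these shares are a description and not a test. DESeq2 called 3 of the 10 genes for the interaction, Gadd45g, Fkbp5 and Mt2, and 1.95% of all genes. Without a filter on low counts edgeR called 5 of the 10 and 3.41% of all genes.

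Fkbp5 (chr17:28399094-28517527, GRCm38, minus strand) encodes FKBP51, a co-chaperone that holds the glucocorticoid receptor in a state of low affinity and is itself induced by the receptor. It was 52.9 CPM in WT 1, 40.2 in WT 4, 49.0 in S155A 1 and 31.1 in S155A 4 of the low series, and 55.6 in WT 2 and 37.4 in WT 3 of the high series. The S155A mice of the high series had 122 CPM (S155A 2) and 130 CPM (S155A 3). These values lay well above the highest of the 6 others, which among themselves did not separate by genotype or series. Within the high series the mean was 2.71-fold higher in S155A, with a log2 fold change of 1.44 (SE 0.26, edgeR adjusted p = 0.179), and within the low series the log2 fold change was -0.22 (SE 0.25, edgeR adjusted p = 0.942). The interaction was 1.65 on the log2 scale (SE 0.36, edgeR adjusted p = 0.253), and DESeq2 gave an adjusted p of 0.00139. Without S155A 3 the interaction was 1.6 (edgeR adjusted p = 0.585) and the log2 fold change within the high series 1.39.

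Mt2 (chr8:94172664-94173568, GRCm38, plus strand), a metallothionein that binds zinc and copper and whose upstream letters are given above, had the largest interaction of the 10 genes. Low-number mice had 233 CPM in WT 1 and 275 in WT 4, against 172 in S155A 1 and 145 in S155A 4. Of the high-number mice, it was 76.0 CPM in WT 2 and 191 in WT 3, against 451 in S155A 2 and 472 in S155A 3. The S155A mice were thus below both WT mice in the low series and above both in the high series, a crossing without overlap that 9.48% of all genes had and that Mt2 alone had among the 10. S155A against WT had a log2 fold change of -0.68 (SE 0.35, edgeR adjusted p = 0.909) in the low and 1.79 (SE 0.35, edgeR adjusted p = 0.19) in the high series. The interaction was 2.47 (SE 0.49, edgeR adjusted p = 0.219, DESeq2 adjusted p = 2.78e-05). Without WT 3 it was 3.28 and passed the edgeR test (adjusted p = 0.0311), as did 0.00684% of all genes, while it was 1.95 without WT 2 (adjusted p = 0.153) and 2.43 without S155A 3 (adjusted p = 0.566). Leaving out 1 WT mouse of the high series thus moved it in either direction.

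Mt1, the neighbouring metallothionein gene and not one of the 10, had the same high pair: 705 CPM in S155A 2 and 837 in S155A 3, against 263 to 431 CPM in the 6 other mice. Its log2 fold change of S155A against WT was 0.81 (SE 0.27, edgeR adjusted p = 0.993), and its interaction was 1.17 (SE 0.31, edgeR adjusted p = 0.282), which became 0.57 and 1.04 without S155A 3. In the low series Mt1 was 431 CPM in S155A 1 and 326 in S155A 4, with 298 in WT 1 and 392 in WT 4, so the crossing seen for Mt2 was not seen for Mt1. Of the list of metallothioneins and metal handling genes 6 of 8 were tested. At an unadjusted p under 0.05 Mt1 was the 1 gene with a positive interaction (6.02% of all genes). The zinc importer Slc39a4 was the 1 with a negative one (-0.64, SE 0.24, edgeR adjusted p = 0.378), where 5.07% of all genes had a negative one. Between the series 1 gene was lower, the zinc and manganese exporter Slc30a10 (-0.95, SE 0.25, edgeR adjusted p = 0.205), where 6.19% of all genes were. The 1 higher gene was Slc39a4 (0.36, SE 0.16, edgeR adjusted p = 0.381), where 6.64% of all genes were. Within the high series both Slc30a10 and Slc39a4 were lower in S155A (log2 fold changes of -0.73 and -0.55), against 1.30 for Mt1.

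Gadd45g (chr13:51846678-51848468, GRCm38, plus strand), which with its relatives binds kinases of the stress pathways and slows growth, had the largest difference between S155A and WT of the 10. Its low-number values were 19.7 CPM in WT 1, 35.6 in WT 4, 20.6 in S155A 1 and 31.6 in S155A 4. Its high-number values were 24.9 CPM in WT 2 and 13.2 in WT 3, against 82.1 in S155A 2 and 80.8 in S155A 3. In the low series the genotypes overlapped, and in the high series the S155A mean was 4.27-fold the WT mean. Within the series, the log2 fold change was 2.09 (SE 0.36, edgeR adjusted p = 0.179) in the high and -0.08 (SE 0.35, edgeR adjusted p = 0.984) in the low series. Over all 8 mice it was 1.2 (SE 0.45, unadjusted p = 0.0233, edgeR adjusted p = 0.993). The interaction was 2.18 (SE 0.50, edgeR adjusted p = 0.257, DESeq2 adjusted p = 0.00077), and it was 2.19 without S155A 3 (edgeR adjusted p = 0.585).

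Klf9 (chr19:23141226-23168134, GRCm38, plus strand), a zinc finger factor induced by glucocorticoids and thyroid hormone, had the same order on a narrower scale. It was 65.1 CPM in S155A 2 and 61.8 in S155A 3, and between 39.6 CPM (WT 2) and 58.0 CPM (WT 1) in the others. WT 1 came close to the high pair, and the 5 remaining mice lay within 39.6 to 45.3 CPM. Within the high series the S155A mean was 1.56-fold the WT mean, and the interaction was 0.81 (SE 0.23, edgeR adjusted p = 0.297). Without S155A 3 the interaction was 0.85 (edgeR adjusted p = 0.605).

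**Figure D3:**
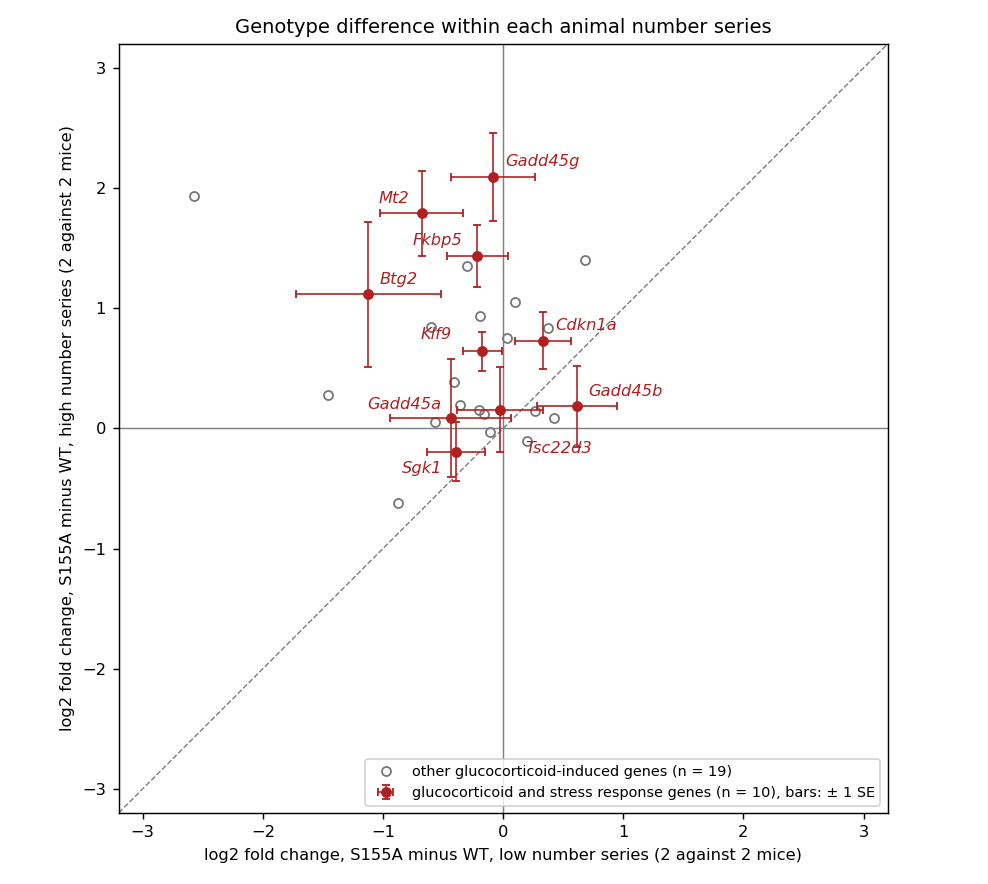
The log2 fold change of S155A against WT in the low series (x axis) and in the high series (y axis) for the 10 genes (red, bars ± 1 SE) and 19 other glucocorticoid-induced genes (open circles), with a dashed line where both are equal. Gadd45g, Mt2 and Fkbp5 lie high on the y axis, at 2.09, 1.79 and 1.44, with values of -0.08, -0.68 and -0.22 on the x axis.

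Btg2 (chr1:134075170-134079120, GRCm38, minus strand), an antiproliferative gene induced within minutes by p53 and by growth signals, was set by 1 mouse. It was 43.5 CPM in WT 4 and between 8.75 and 24.2 CPM in the 7 others. The highest of those others were S155A 3 with 24.2 CPM and S155A 2 with 16.2, and the remaining 5 lay between 8.75 and 15.0 CPM. The interaction was 2.24 (SE 0.85, edgeR adjusted p = 0.394) with all mice, 0.66 without WT 4 and 1.92 without S155A 3. Between genotypes the log2 fold change was -0.14 (SE 0.53) with all mice and 0.82 without WT 4, which turns its direction. The same mouse had the highest level of several immediate early genes, which switch on within minutes of a stimulus. Nr4a1 was 92.8 CPM in WT 4 and 29.1 in S155A 4, against 2.24 to 8.27 CPM in the 6 others, and Jun was 75.6 and Ier2 51.5 CPM in WT 4. A list of 18 immediate early genes summed to 608 CPM in WT 4, 506 in S155A 4, 491 in S155A 3 and 270 to 421 in the others. Btg2 was 15.0 CPM in S155A 4 and 24.2 in S155A 3. The part of the immediate early genes in the Btg2 level was not tested.

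Gadd45b (chr10:80930073-80932204, GRCm38, plus strand), the relative of Gadd45g that inflammatory signals induce, overlapped between the genotypes and between the series. It was 15.1 CPM in WT 1, 12.8 in WT 4, 15.3 in S155A 1 and 27.5 in S155A 4 of the low series. Its level was 12.8 CPM in WT 2, 24.7 in WT 3, 20.6 in S155A 2 and 22.0 in S155A 3 of the high series. All S155A mice were thus above WT 1, WT 2 and WT 4, while WT 3 was above all of them but S155A 4. The mean was 16.4 ± 5.67 CPM (SD, n = 4) in WT and 21.3 ± 5.01 CPM (SD, n = 4) in S155A, a log2 fold change of 0.38 (SE 0.24, edgeR adjusted p = 0.993). The highest of the 8 mice was S155A 4 for Gadd45b, S155A 2 for Gadd45g and WT 2 for Gadd45a.

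Sgk1 (chr10:21882184-21999903, GRCm38, plus strand) encodes a kinase of ion and glucose transport that glucocorticoids induce in many cells. The window of 1 of its several starts was the one with the full response element. The coefficient of variation of Sgk1 was the smallest of the 10, while by the ratio of the highest to the lowest mouse Klf9 varied less (1.64 against 1.76). It was 17.5 CPM in WT 1, 25.8 in WT 4, 16.5 in S155A 1 and 16.5 in S155A 4 of the low series. In the high series it was 15.4 CPM in WT 2, 22.7 in WT 3, 14.7 in S155A 2 and 18.6 in S155A 3. The S155A mice of the high series, which had the highest Fkbp5 and Mt2, did not stand apart here: S155A 2 was the lowest of the 8 mice and S155A 3 the third highest. The log2 fold change was -0.30 (SE 0.17, edgeR adjusted p = 0.993) between genotypes, -0.09 (SE 0.17, edgeR adjusted p = 0.875) between series, and 0.20 (SE 0.34, edgeR adjusted p = 0.874) for the interaction.

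The receptor gene itself had a narrow range. Nr3c1, which encodes the glucocorticoid receptor, lay between 34.3 and 40.7 CPM in the 8 mice, and Hsd11b1, the enzyme that regenerates active glucocorticoid inside hepatocytes, lay between 424 and 529 CPM. The list of the glucocorticoid receptor axis (carriers, enzymes, chaperones and cofactors) had 14 genes, all tested, of which edgeR called 0 in each comparison. At an unadjusted p under 0.05 it had 3 genes higher in the high series, Serpina6, Fkbp4 and Stip1 (6.64% of all genes), and 2 lower in S155A, Srd5a1 and Ncor1 (1.98% of all genes). Without S155A 3 the same 3 genes were higher in the high series, Ncor1 was lower there, and none was under 0.05 between genotypes. Serpina6, which encodes the corticosteroid-binding globulin of plasma, was 82.1 CPM in WT 1, 116 in WT 4, 108 in S155A 1 and 165 in S155A 4. High-number mice had 516 CPM in WT 2, 223 in WT 3, 315 in S155A 2 and 313 in S155A 3. The series did not overlap (log2 fold change 1.55, SE 0.28, edgeR adjusted p = 0.108), and the genotypes did. Fkbp4, the co-chaperone that counteracts FKBP51, had a log2 fold change of 0.53 between the series (SE 0.15, edgeR adjusted p = 0.214).

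Of 20 other genes known to be induced by glucocorticoids in liver, 19 were tested and edgeR called 0 in each comparison. Between the series 4 were higher at an unadjusted p under 0.05, among them Cebpb, Per1 and Nfkbia, and none was lower, where 6.64% of all genes were higher and 6.19% lower. Without S155A 3 there were 2 higher, Cebpb and Per1, and 1 lower, Got1. Cebpb, a factor of the acute phase and of gluconeogenesis, was 84.1 CPM in S155A 2 and 81.4 in S155A 3 against 30.2 to 55.6 in the others, with a log2 fold change between the series of 0.84 (SE 0.17, edgeR adjusted p = 0.147). Per1, a clock gene with a glucocorticoid response element, had a log2 fold change of 0.40 (SE 0.13, edgeR adjusted p = 0.273). Between genotypes the 2 smallest p belonged to G6pc, the last enzyme of gluconeogenesis (log2 fold change -0.75, SE 0.22, edgeR adjusted p = 0.993), and Cebpd (0.68, SE 0.30, edgeR adjusted p = 0.993). Like Fkbp5, 6 of the 19 were highest in both high-number S155A mice, namely Zbtb16, Ddit4, Cebpd, Cebpb, Errfi1 and Lpin1, where 9.11% of all genes were. The interaction was positive in 16 of the 19 (49.1% of all genes), with a median of 0.62. Among the 19, 6 had an unadjusted p under 0.05, all positive (6.02% of all genes): Tat, Ddit4, Cebpd, Lcn2, Sds and Errfi1. Without S155A 3 that median was 0.49 and 4 of these 6 were under 0.05, Tat, Ddit4, Sds and Lcn2. Ddit4, an inhibitor of mTOR signalling, was 10.03 CPM in S155A 2 and 9.90 in S155A 3 and between 2.75 and 5.59 CPM in the others, with an interaction of 1.65 (SE 0.47, edgeR adjusted p = 0.297).

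**Figure D4:**
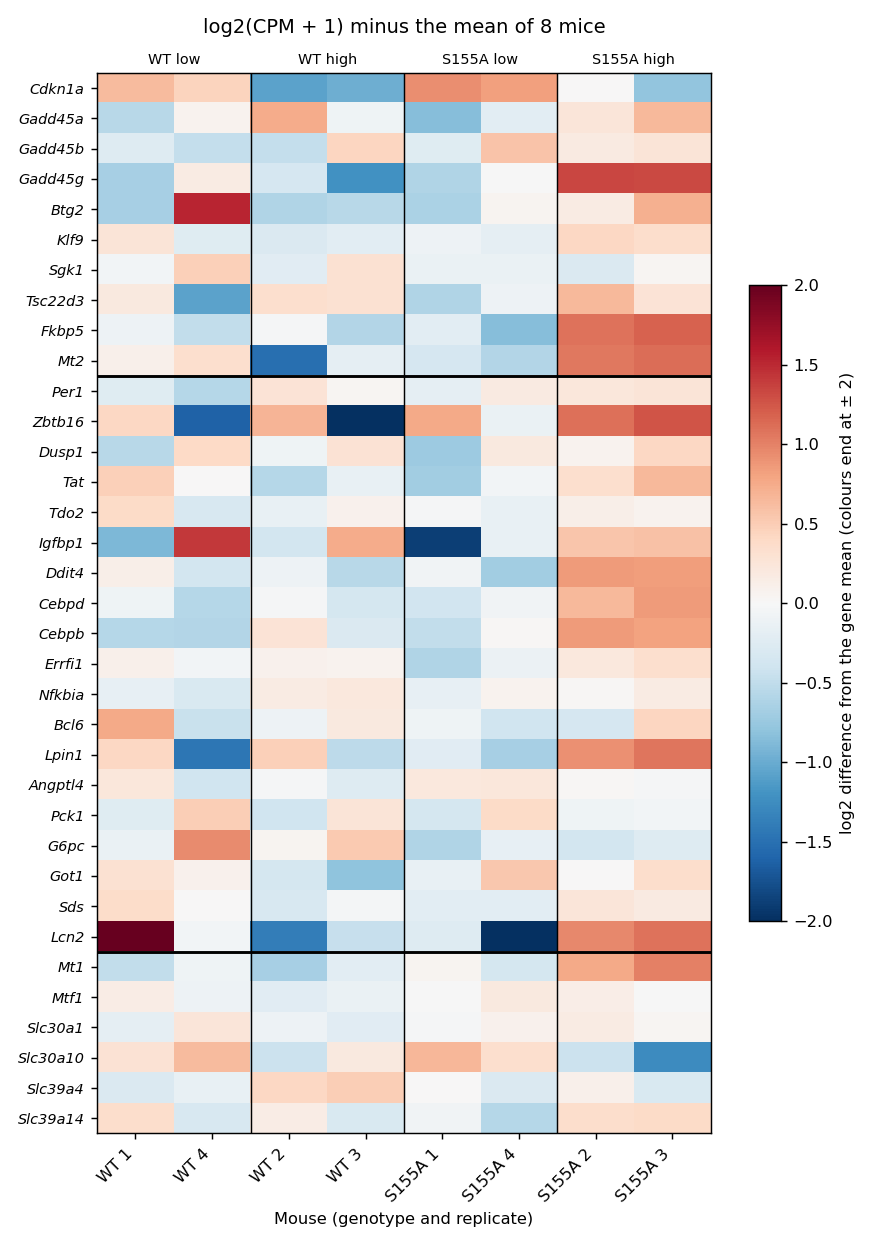
The level of 35 genes in each mouse, as log2(CPM + 1) minus the mean of the gene over the 8 mice (red above, blue below, colours end at 2 in either direction), with the 10 genes at the top, other glucocorticoid-induced genes in the middle and metal handling genes at the bottom. The columns of S155A 2 and S155A 3 are red for Gadd45g, Fkbp5, Mt2, Mt1, Ddit4, Cebpb and Cebpd. The row of Cdkn1a is blue in WT 2, WT 3 and S155A 3.

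Of 21 other targets of p53, all tested, edgeR called 0, and at an unadjusted p under 0.05 there was 1 lower in the high series, Fas (log2 fold change -0.39, SE 0.16, edgeR adjusted p = 0.364), and 1 lower in S155A, Trp53inp1 (-0.77, SE 0.30, edgeR adjusted p = 0.993), beside 6.19% and 1.98% of all genes. Without S155A 3 the unadjusted p of Fas was 0.117. The median of the list between the series was -0.02. Mdm2, the p53 target that degrades p53, lay between 21.9 and 28.4 CPM. The genes whose log2 CPM over the 8 mice was most like that of Cdkn1a, of 12098 genes searched, were Cluh (Pearson r = 0.95), which binds mRNAs of mitochondrial proteins, and Pwp1 (r = 0.94). For Gadd45a these were Tnfrsf19 (r = 0.97) and Akt2 (r = 0.95), and for Tsc22d3 they were Kri1 and Ndufa4 (r = 0.97 for both). These are the highest of many values over 8 mice and are given as a description.

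Of 14 cell cycle genes, on which p21 acts, edgeR called 0 between the series. At an unadjusted p under 0.05, 1 was higher in the high series (6.64% of all genes), Ccna2 (1.30, SE 0.57, edgeR adjusted p = 0.385). Without S155A 3 its log2 fold change was 0.67 (unadjusted p = 0.195). Mki67, a marker of dividing cells, was 10.005 CPM in S155A 3, the library with the lymphocyte markers, and between 0.937 and 2.59 CPM in the others. Of 18 immediate early genes 1 was higher in the high series at an unadjusted p under 0.05 (6.64% of all genes), Zfp36 (0.65, SE 0.24, edgeR adjusted p = 0.308). Another was lower (6.19% of all genes), Nr4a1 (-2.93, SE 0.97, edgeR adjusted p = 0.275). Of these Nr4a1 was still under 0.05 without S155A 3. Among 17 relatives of the 10 genes, 5 were higher in the high series at an unadjusted p under 0.05 (6.64% of all genes), 4 of them also without S155A 3, including Klf13 (1.07, SE 0.29, edgeR adjusted p = 0.219) and Klf15 (0.54, SE 0.18, edgeR adjusted p = 0.28), and none was lower. Between genotypes 1 was higher in S155A at that threshold, Mt1 (1.42% of all genes), and 1 lower, Tsc22d1 (1.98% of all genes). Tsc22d1, a relative of Tsc22d3, had a log2 fold change of -0.95 (SE 0.37, edgeR adjusted p = 0.993). Without S155A 3 Mt1 was under 0.05 and Tsc22d1 was not (unadjusted p = 0.065).

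Clock genes are given because their values lay apart between the number series, as those of Cdkn1a and Tsc22d3 did. Of 15 tested, 9 were higher and 4 lower in the high series at an unadjusted p under 0.05, where 6.64% and 6.19% of all genes were. Their median was 0.65, that of all genes was -0.004, and edgeR called 0. Without S155A 3 there were 8 and 4, with a median of 0.46. Dbp, a clock output factor, was 24.5 CPM in WT 1, 9.71 in WT 4, 19.6 in S155A 1 and 9.33 in S155A 4. In the high series it was 153 CPM in WT 2, 66.1 in WT 3, 132 in S155A 2 and 153 in S155A 3. Between the series Dbp had a log2 fold change of 2.99 (SE 0.39, edgeR adjusted p = 0.0618), that of Nr1d2 was 0.68 (SE 0.10, edgeR adjusted p = 0.0618), and that of Arntl, which peaks at the opposite phase, was -2.21 (SE 0.40, edgeR adjusted p = 0.108). The part of the clock genes in the levels of Cdkn1a, Tsc22d3 and Serpina6 was not tested, and the time of harvest of each mouse is not in the labels.

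Markers of other cells beside the high S155A pair were as follows. The hepatocyte markers, 7 of 8 tested, summed to 120685 and 125767 CPM in S155A 2 and S155A 3 and to 87480 to 106675 CPM in the 6 others. Of the 7, 4 were highest in both mice of this pair, where 9.11% of all genes were. The Kupffer cell markers summed to 302 and 217 CPM in this pair and to 134 to 263 CPM in the others. Their interaction was positive in 6 of 6 (49.1% of all genes), with a median of 1.47, and of 1.38 without S155A 3. None of them was highest in both mice of the pair. The neutrophil markers, 4 of 5 tested, summed to 15.9 and 10.6 CPM in the pair and to 3.24 to 9.67 CPM in the others. Of the 4, 3 were highest in both mice of the pair (9.11% of all genes). The stellate cell markers summed to 97.4 CPM in S155A 2 and to 170 to 295 CPM in the 7 others. None of them was highest in both mice of the pair. Their median interaction was -0.16 with all mice and -0.79 without S155A 3. The lymphocyte markers summed highest in this pair, at 26.6 CPM in S155A 2 and 891 in S155A 3 against 10.3 to 24.5 CPM in the 6 others. Singly, 2 of the 6 lymphocyte markers were highest in both mice of the pair (9.11% of all genes). Endothelial markers summed lowest in the pair, at 108 and 123 CPM against 127 to 183 CPM. The single markers did not all follow, since 1 of the 6 was highest in the pair (9.11% of all genes). Within the high series 3 of the 6 were higher in S155A. The adipocyte list had 1 of 5 genes tested, Cidec, and this gene was lowest in the pair, at 40.2 and 36.2 CPM against 43.4 to 131 CPM. The pancreatic acinar list had 2 of 6 genes tested, Cela2a and Cela1, which summed to 4.07 to 19.2 CPM, with 6.43 and 5.12 CPM in the pair. Cholangiocyte markers summed to 27.1 to 85.4 CPM, and red blood cell markers to 411 CPM in WT 1 and 2647 CPM in WT 4. The defining markers of acinar cells (Prss2, Cpa1, Pnlip, Ctrb1) and of adipocytes (Adipoq, Plin1, Lep, Retn) were below the filter on low counts. The part of these cells in the levels of Fkbp5, Gadd45g, Klf9 and Mt2 was not tested.

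Several of the 10 genes overlap other annotated genes. Cdkn1a, Gadd45a, Fkbp5 and Mt2 each overlap a transcript on the opposite strand (AC167363.2, E230016M11Rik, AC154912.1 and Gm45774), and Fkbp5 and Klf9 also contain small genes on their own strand. The kit marks strand, while the use of strand in the counting is not given in the sources used here. Of the overlapping genes E230016M11Rik was in the tested set, at a mean of 0.663 CPM beside 3.05 CPM for Gadd45a.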

How the data were processed

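Livers of 8 mice were lysed in TRIzol, and stranded mRNA libraries (Illumina TruSeq) were sequenced as paired ends. The deposited table holds length-scaled estimated counts from salmon for each gene, not normalized for library size by the authors. The build per the labels is GRCm38, and the submitters' processing notes also name STAR, SAMtools, MultiQC and DESeq2. The salmon version, the annotation release and the use of strand in counting are not given in the sources used here. Scaling by length can shift counts of genes whose isoform use varies from mouse to mouse. Fkbp5 and Sgk1 have 15 and 13 annotated transcripts.

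Counts were rounded, and genes were kept with filterByExpr (14629 of 45706). Each column was matched to a mouse by its animal number. The genotypes were compared over all 8 mice without other terms, the series with genotype as a term, and the interaction and the differences within series or genotype in a fit of the 4 combinations, with glmQLFTest of edgeR 4.0.16 (R 4.3.3) with TMM and a threshold of 0.05 on the Benjamini-Hochberg adjusted p over all genes. Standard errors came from the F statistic. Log2 CPM used a prior count of 2, and single genes were compared by two-sided exact permutation tests of log2 CPM (scipy 1.17.1). The scripts were tested on simulated data. With 4 against 4 mice, and 2 against 2 within a series, the spread between mice rather than the depth limits the precision.

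The 10 genes and all gene lists were chosen with earlier results of these data known. The text names all 10 genes, up to 3 genes per pathway list with the smallest p between series and up to 2 between genotypes, the 2 genes most alike for the 3 members with the smallest p between series, and Nr3c1, Hsd11b1, Mt1, Per1, Mdm2 and Plin5. Genes named for being highest in both high-number S155A mice, for the interaction or beside Btg2 were chosen after their values were seen. Alternatives were DESeq2 1.42.0, its size factors inside edgeR, library size alone, no filter, a minimum of 10 counts per library on average, a replicate block, series as a term or no genotype term, and leaving out each mouse. Sequences were read from RefSeq windows of GRCm38.p6, and positions from GENCODE M21.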

Additional observations from a re-analysis of the deposited data

Results flagged for a closer look

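In 40 groups of 4 mice (10 genes in each genotype and each series) 6 single mice stood apart from the other 3 by Dixon's test at the 95% level, where chance gives about 2. Btg2 was 43.5 CPM in WT 4, the highest of the WT mice, and Tsc22d3 was 47.1 CPM in the same mouse, the lowest of the WT mice. Sgk1 was 25.8 CPM in WT 4, the highest of the low series. Klf9 was 58.0 CPM in WT 1, the highest of the WT mice. Gadd45b was 27.5 CPM in S155A 4, the highest of the low series, and Tsc22d3 was 157 CPM in S155A 2, the highest of the high series. WT 4 thus gave 3 of the 6. Mt2 was lower in both S155A mice than in both WT mice of the low series and higher in both of the high series, with an interaction of 2.47 on the log2 scale (edgeR adjusted p = 0.219).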

How the results depend on the processing

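With 4 against 4 mice, or 2 against 2 within a series, leaving out 1 mouse turned the sign of several small differences. What goes with the animal numbers cannot be told apart from them, and time of harvest, litter and cage are not in the labels. DESeq2 called 6 genes between genotypes, 408 between series (1 of the 10 genes) and 285 for the interaction (3 of the 10), against 0 with edgeR. Without a filter on low counts edgeR called 514 genes between series (4 of the 10) and 765 for the interaction (5 of the 10), and the prior degrees of freedom that edgeR estimates were 33.6 and infinite there, against 4.24 and 4.55 with the filter. Without a genotype term 12 genes were called between series. Other scalings and the minimum of 10 counts changed no count of calls.

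Replicate numbers are shared by the genotypes, but same-numbered mice did not deviate together in every pair (correlations of 0.056, 0.166, -0.111 and 0.129 for numbers 1 to 4), and WT 3 correlated best with S155A 4 (0.140). With the replicate block 4 genes were called for the interaction, none of the 10, and the log2 fold change of Btg2 between genotypes was 0.19 in place of -0.14. Between genotypes the unadjusted edgeR p with the block was 0.0195 for Cdkn1a and 0.0627 for Gadd45g, so that Cdkn1a took the place of Gadd45g under 0.05. No paired analysis of the series was possible because each number belongs to 1 series.

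Leaving out 1 mouse at a time gave 0 to 119 genes (0 to 1 of the 10) between series, the 119 without WT 3, and 0 to 40 genes (0 to 1 of the 10) for the interaction, the 40 without WT 4. In the fits of the 4 combinations the lone mouse left is taken to vary like the others. The ranges of log2 fold changes that crossed 0 were, between genotypes, -0.45 to 0.31 for Gadd45a, -0.41 to 0.82 for Btg2 and -0.15 to 0.27 for Tsc22d3. Between series they were -0.051 to 0.45 for Gadd45b, -0.79 to 0.49 for Btg2, -0.19 to 0.057 for Sgk1 and -0.10 to 0.84 for Mt2. For the interaction they were -0.070 to 0.75 for Cdkn1a, -0.0068 to 1.15 for Gadd45a, -0.83 to 0.11 for Gadd45b, -0.10 to 0.51 for Sgk1 and -0.59 to 0.68 for Tsc22d3. Within the low series such ranges were taken for Gadd45g, Klf9, Fkbp5 and Mt2 alone. There they were -0.45 to 0.41 for Gadd45g, -0.40 to 0.10 for Klf9 and -0.58 to 0.074 for Fkbp5, and that of Mt2 did not cross 0. The cause of these changes was not tested. Between series Cdkn1a kept its direction in every alternative, from -1.67 to -1.33, and so did the interactions of Gadd45g, Btg2, Klf9, Fkbp5 and Mt2.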
